A study of Rattus norvegicus with 20 samples.

Results

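RNA of primary heart cell cultures from newborn rats was compared between 3 arrays of cultures given celecoxib at a reference concentration of 1/25 for 6 h and 2 arrays of untreated cultures. These 5 arrays were chosen by their labels, out of 20 arrays in all. The other 15 arrays held celecoxib at reference concentrations of 1 and 1/5 for 6 h and of 1, 1/5 and 1/25 for 24 h, with 3 arrays in each group. All cultures had grown for 1 day in DMEM medium before treatment, and the tissue was labelled as cardiomyocyte without a strain, a sex or a purification step. The absolute concentration behind 1/25 was not given, and the untreated cultures carried neither a time nor a vehicle, so they are not known to be matched to the 6 h cultures. The design text names 3 replicates per group, and 2 untreated arrays were analysed here. Nothing says that the replicates were separate cultures, so the p-values cover nothing beyond the scatter of these arrays, and that scatter may be technical.

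Celecoxib is a selective inhibitor of cyclo-oxygenase 2, the inducible enzyme encoded by Ptgs2 that turns arachidonic acid into the precursor of prostaglandins and thromboxane. Ptgs1 encodes the constitutive form of the enzyme. Celecoxib also carries a sulfonamide group that binds carbonic anhydrases. Cultures of newborn heart hold contracting cardiomyocytes together with fibroblasts, smooth muscle, endothelial cells and macrophages, and the fibroblasts in particular answer growth factors and inflammatory signals with chemokines, proteases and prostaglandins.

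After 6 h at 1/25, Gldn, which encodes the extracellular matrix protein gliomedin, was 20.3-fold higher with celecoxib than in untreated cultures, and Tfpi2, which encodes a secreted inhibitor of plasmin and other serine proteases, was 13.8-fold higher. Ptgs2, the gene of the drug's own target, was 4.74-fold higher, and the chemokine gene Ccl2 was 4.72-fold higher. The cytokine gene Il24 was 13.3-fold lower. Of these 5 genes, Gldn and Il24 were called whichever of the 5 arrays was left out. When slide replaced scan day in the fit, Gldn kept its call and Il24 lost it. Most other calls of the comparison were lost without 1 of 2 particular arrays, namely celecoxib replicate 1 and untreated replicate 1. The first is the only one of the 3 celecoxib arrays that shares the scan day of the untreated arrays. Without it all called genes kept their sign.

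The letters before the start sites of 3 of the genes that rose are shown because Gldn and Tfpi2 had the largest changes among the 12 rises described below and Ptgs2 encodes the drug's target. Each is the 250 bases before the start of the gene, 5′ to 3′, from RefSeq on the GRCr8 build, and capitals mark matches to the motifs searched. For Gldn the stretch is chr8:63575020-63575269 on the plus strand, for Tfpi2 chr4:32941277-32941526 on the minus strand, and for Ptgs2 chr13:64713813-64714062 on the plus strand.
Gldn: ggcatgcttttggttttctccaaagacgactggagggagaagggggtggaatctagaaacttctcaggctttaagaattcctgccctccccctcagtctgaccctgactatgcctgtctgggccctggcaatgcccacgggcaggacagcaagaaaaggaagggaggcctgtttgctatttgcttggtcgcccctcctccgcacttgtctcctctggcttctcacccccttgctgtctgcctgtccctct
Tfpi2: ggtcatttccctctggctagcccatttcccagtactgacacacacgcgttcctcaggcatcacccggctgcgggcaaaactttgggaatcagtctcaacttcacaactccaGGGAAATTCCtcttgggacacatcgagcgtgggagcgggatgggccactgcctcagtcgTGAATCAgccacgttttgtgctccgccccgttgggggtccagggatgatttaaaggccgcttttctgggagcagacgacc
Ptgs2: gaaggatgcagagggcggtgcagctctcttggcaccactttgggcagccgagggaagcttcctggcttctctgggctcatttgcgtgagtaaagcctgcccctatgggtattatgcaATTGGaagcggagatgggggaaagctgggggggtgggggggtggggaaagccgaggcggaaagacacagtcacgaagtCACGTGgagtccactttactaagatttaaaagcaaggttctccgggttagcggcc
The TATA box was searched as TATAAA. The cyclic AMP response element was searched as TGACGTCA. The letters used for AP-1 were TGANTCA. Those of the E-box were CACGTG. The CCAAT box and the NF-kappa-B consensus were searched as well, and all were read on both strands. The capitals in Tfpi2 are an NF-kappa-B match that begins 139 bases before the start and an AP-1 match that begins 80 bases before it. Those in Ptgs2 are a reverse-strand CCAAT match 133 bases before the start and an E-box match 55 bases before it. The Gldn window holds no match to any of these letters. Among all 33469 promoter windows of this length, 3.54% held the NF-kappa-B consensus, 6.34% AP-1, 5.59% the E-box, 34.0% CCAAT, 12.9% TATAAA and 1.59% the cyclic AMP response element. Of the 12 named genes that rose, 8 had a window. Of these, 2 held AP-1, 2 CCAAT, 1 the NF-kappa-B consensus, 1 the E-box, 1 TATAAA and 0 the cyclic AMP response element. Among the named genes that fell, 8 had a window, of which 2 held CCAAT, 1 AP-1, 1 TATAAA and 0 each of the other motifs. These matches describe letters only.

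The arrays were single-colour Agilent arrays with 41012 probes. Across the 20 arrays 63.5% to 83.1% of probes were well above background and 5.75% to 9.23% were saturated, which compresses changes of bright probes. The number of arrays limits the precision. Values below are log2 signals relative to the 75th percentile of their own array, so 0 means a signal equal to that percentile. Both untreated arrays and celecoxib replicate 1 were scanned on the first of 2 scan days, and celecoxib replicates 2 and 3 on the second. The untreated arrays lay on 1 slide, celecoxib replicate 1 on another and celecoxib replicates 2 and 3 together on one more, so slide and treatment cannot be told apart within these 5 arrays. Untreated replicate 1 stood apart: its 75th percentile was 4.07 times its median, the lowest ratio of the 20 arrays, and the ratio for celecoxib replicate 3 was 7, the highest. Across genes, the log2 signals of that celecoxib array and that untreated array correlated at 0.792, the lowest of the 10 pairs, against 0.922 between the untreated arrays and 0.888 to 0.924 among the celecoxib arrays. The highest of the 10, at 0.934, was that of celecoxib replicate 1 with untreated replicate 2, so these correlations did not separate the groups.

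All 20 arrays were fitted together in limma with a mean for each of 7 groups and a term for scan day, which arrays of both days in the groups 1/25 for 6 h and 1 for 6 h allow to be estimated. Of 27735 genes tested, 3211 (11.6%) were called at an adjusted p below 0.05, of which 728 (2.62% of those tested) were higher with celecoxib and 2483 (8.95%) lower. The median change over all genes was -0.10 on the log2 scale. The split depended on the scaling: 77.3% of the calls were lower with the 75th percentile, 62.6% with quantile normalization and 24.4% with the median of the array, where the median of all genes was 0.44. Without the term for scan day 1662 genes (5.99%) were called, 62.5% of them lower, and 966 of the 3211 were among them. On the arrays of the first scan day alone 2546 (9.2%) were called, but there celecoxib 1/25 for 6 h is 1 array, replicate 1, which is assumed to vary like the other groups. With slide as a random block in place of scan day 15 genes (0.0541%) were called. Without celecoxib replicate 1 the count was 22 (0.0793%), and without untreated replicate 1 it was 335 (1.21%), whereas it was 6895 without celecoxib replicate 2 and 6152 without untreated replicate 2. Celecoxib replicate 1 is the only array of its group from the untreated arrays' scan day. Without it the comparison rests fully on the day term, estimated from celecoxib 1 for 6 h alone. All 3211 called genes kept their sign in that fit. A lost call there need not mean a smaller change. All 3 celecoxib arrays lay above both untreated arrays for 2875 genes (10.4%) and below both for 5284 genes (19.1%). With 3 arrays against 2, some genes separate in this way without any difference between the groups. These counts are therefore no evidence of one.

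**Figure D1:**
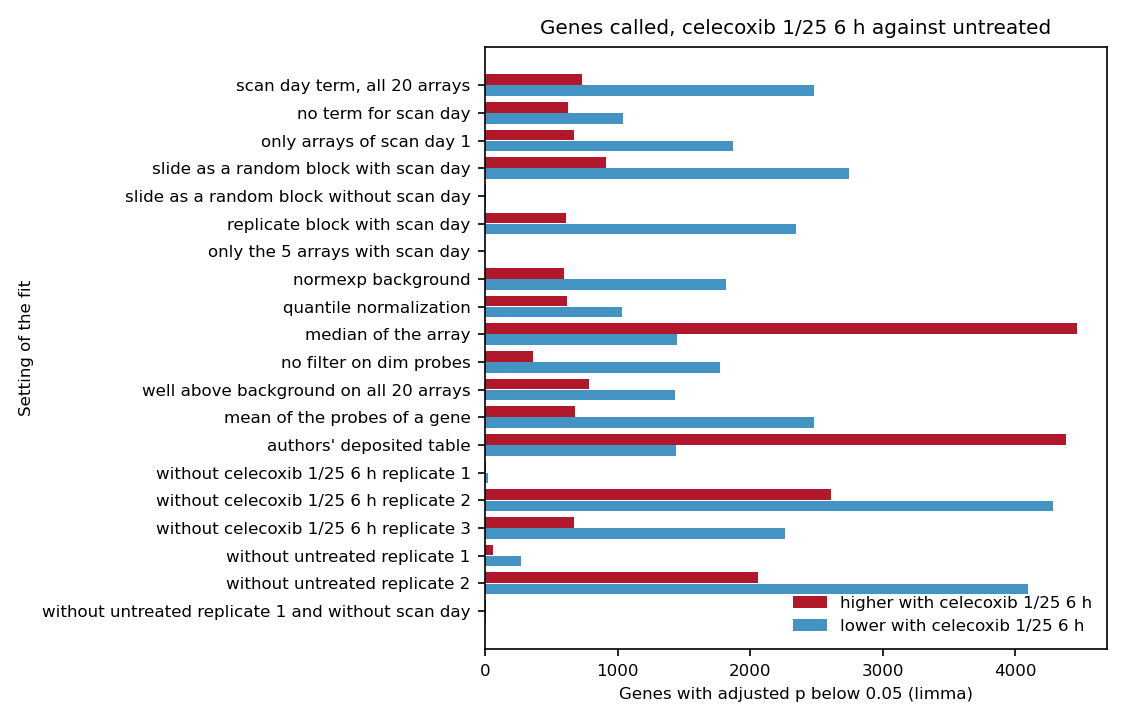
Number of genes called (adjusted p below 0.05 in limma, x axis) as higher (red) or lower (blue) with celecoxib 1/25 for 6 h than in untreated cultures, for each setting of the fit (y axis). The bars fall from 3211 genes to 22 without celecoxib replicate 1, 335 without untreated replicate 1 and 15 with slide as a random block without scan day, and the split between directions turns with the median of the array.

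The 12 largest rises and the 12 largest falls are described. They were taken from called genes that had a symbol, whose probe read well above background on each of the 5 arrays and whose groups did not overlap. These conditions were met by 97 rises and 469 falls. Since the members were picked for their change, their folds and calls describe them and are no further support.

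Gldn, whose protein gathers sodium channels at the nodes of Ranvier of peripheral nerve, had values of 0.63, 0.36 and 0.05 with celecoxib, against -4.01 and -3.77 in untreated cultures. The gap of more than 3 log2 units between the nearest arrays was wide beside the spread within either group. The fitted change was 4.34 ± 0.34 (log2, SE; adjusted p = 3.31e-05 in limma), and the gene stayed called when each of the 5 arrays was left out, at up to 4.47. The change was 4.24 without the scan day term (adjusted p = 2.39e-06) and 4.52 between celecoxib replicate 1 and the untreated arrays, which share their scan day. With slide as a random block the gene was still called (adjusted p = 4.78e-05).

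Tfpi2 read -0.10, -1.07 and -0.03 with celecoxib, against -4.44 and -3.72 in untreated cultures. Both scan days gave celecoxib values far above the untreated ones. The fitted change was 3.79 ± 0.53 (adjusted p = 0.00193), and the gene was called with slide as a random block (adjusted p = 0.0276). Nes, which encodes the intermediate filament nestin of progenitor and muscle cells, read 1.99, 1.56 and 2.32 with celecoxib, against -0.90 and -0.54 in untreated cultures. Its change was 2.90 ± 0.39 (adjusted p = 0.00193), with 1 celecoxib array saturated, and its other probe gave 2.37. Gldn, Tfpi2 and Nes were the 3 of the 12 genes that stayed called with slide as a random block without scan day.

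Olr1, which encodes the LOX-1 scavenger receptor for oxidised low-density lipoprotein, read 3.16, 1.69 and 2.31 with celecoxib, against -0.30 and 0.27 in untreated cultures. The probe was saturated on all 3 celecoxib arrays, so the fitted change of 2.83 ± 0.39 (adjusted p = 0.00193) is compressed. Ctss, the lysosomal cysteine protease cathepsin S, read -0.89, -1.62 and -0.18 with celecoxib, against -3.70 and -3.11 in untreated cultures. Its change was 2.27 ± 0.45 (adjusted p = 0.00987), and its other probe gave 2.18.

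Ptgs2 read -0.74, -0.39 and 0.23 with celecoxib, against -3.87 and -2.39 in untreated cultures. The groups were well apart, but the untreated arrays themselves differed by more than 1 log2 unit, with untreated replicate 1 the lower. The fitted change was 2.25 ± 0.46 (adjusted p = 0.011). Without untreated replicate 1 it was 1.51 and no longer called (adjusted p = 0.11), and without the scan day term it was 2.83 (adjusted p = 0.00708). None of 3 other prostaglandin genes named whatever their value passed the test. The change of Ptgs1 was 0.53 ± 0.26 (adjusted p = 0.172), with 1 celecoxib array saturated. Ptges, the inducible prostaglandin E synthase, changed by -0.72 ± 0.38 (adjusted p = 0.187), and Ptgis, the prostacyclin synthase, by -0.41 ± 0.37 (adjusted p = 0.426).

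The signalling molecules among the rises were Ccl2, Fgf2, Pthlh and the receptor genes Gfra2 and Itga2. Ccl2, which attracts monocytes, read 1.25, -0.27 and -0.12 with celecoxib, against -1.69 and -1.0 in untreated cultures. The array of the shared scan day was the highest. Its change was 2.24 ± 0.37 (adjusted p = 0.00437). Pthlh, which encodes parathyroid hormone-related protein, read 1.35, -0.59 and -0.21 with celecoxib, against -1.32 and -1.02 in untreated cultures. Its celecoxib arrays followed the scan day, with a fitted day 2 minus day 1 difference of -1.51. The change was 2.36 ± 0.35 (adjusted p = 0.00242), and without the scan day term 1.35 (adjusted p = 0.0911).

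Fgf2, the basic fibroblast growth factor, read -0.57, -1.25 and -3.23 with celecoxib, against -3.42 and -3.81 in untreated cultures. One celecoxib array of the second day lay close to the untreated level, and the gene's other kept probe changed in the opposite direction (-1.22), so its rise of 2.93 ± 0.54 (adjusted p = 0.0072) is that of 1 probe. Gfra2, the receptor of the growth factor neurturin, read -1.17, -0.52 and 0.67 with celecoxib, against -2.44 and -3.31 in untreated cultures (change 2.16 ± 0.48, adjusted p = 0.0149). Itga2, the collagen-binding integrin alpha 2, read -0.09, 0.12 and -1.52 with celecoxib, against -1.55 and -3.03 in untreated cultures. The lowest celecoxib array nearly met the higher untreated one. Its change was 2.12 ± 0.52 (adjusted p = 0.0211). Dlx5, a homeobox transcription factor of the skeleton and neural crest, read 0.15, -0.66 and -0.92 with celecoxib, against -3.40 and -1.52 in untreated cultures, and its change was 2.75 ± 0.53 (adjusted p = 0.0084).

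**Figure D2:**
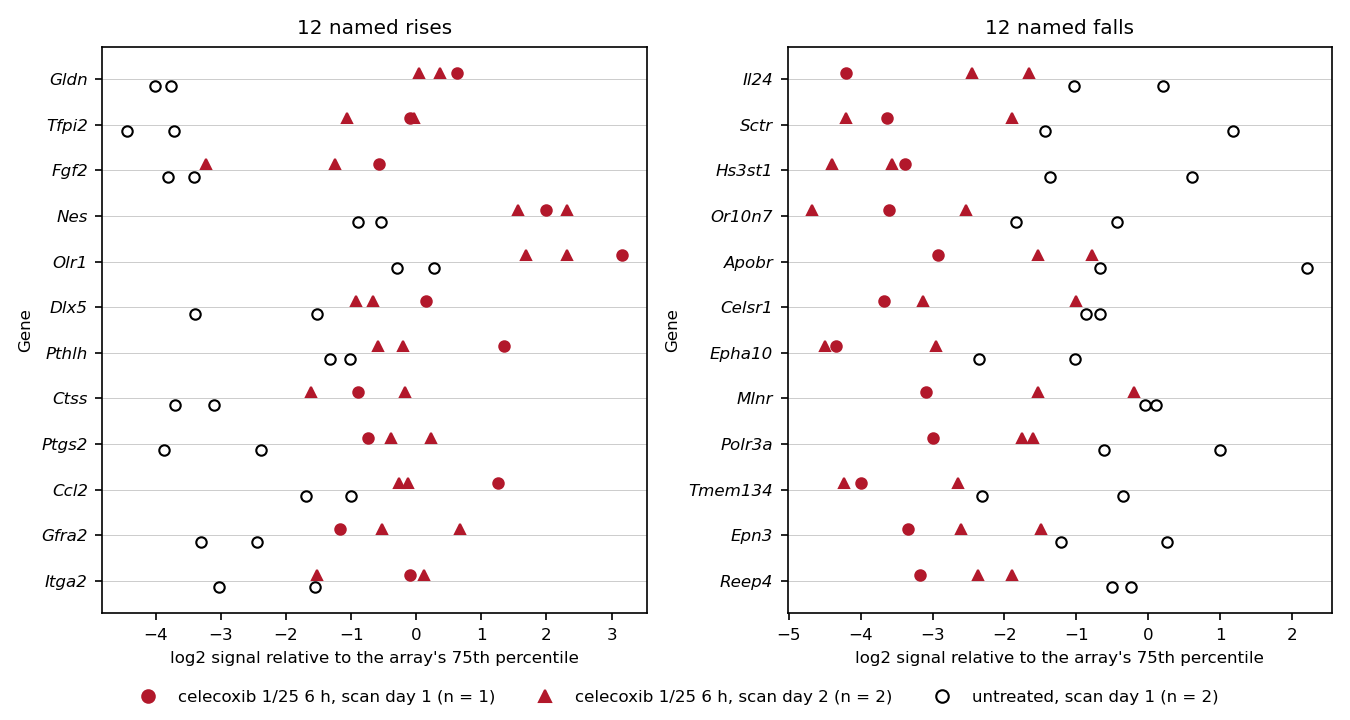
Log2 signal relative to the array's 75th percentile (x axis) of the 12 named rises (left panel) and 12 named falls (right panel), 1 gene per line on the y axis. Filled red circles are celecoxib 1/25 6 h replicate 1 (scan day 1), filled red triangles replicates 2 and 3 (scan day 2), and open black circles the 2 untreated arrays; among the rises the gap is widest for Gldn, and among the falls the untreated arrays lie up to 2.88 apart.

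The falls were less tight. In all 12 of them untreated replicate 1 read higher than untreated replicate 2, by 0.15 to 2.88 log2 units, while in 9 of the 12 rises it read lower. Of the 12 falls, 1 stayed called without untreated replicate 1, against 9 of the 12 rises. Without celecoxib replicate 1, the only celecoxib array of the first scan day, 1 rise and 1 fall stayed called. Without the scan day term 10 rises and 9 falls were called.

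Il24, a cytokine of the interleukin 10 family, read -4.20, -1.66 and -2.45 with celecoxib, against 0.21 and -1.04 in untreated cultures. The celecoxib array of the shared scan day was the lowest, and the fitted day 2 minus day 1 difference was 2.07. The change was -3.73 ± 0.41 (adjusted p = 0.000932), and it was -2.35 without the scan day term (adjusted p = 0.0434) and -3.11 without untreated replicate 1 (adjusted p = 0.00491). It was the fall that stayed called without each of the 5 arrays. Without celecoxib replicate 1 it passed narrowly, with a change of -3.64 (limma, adjusted p = 0.0494). When the fit blocked on slide and had no scan day term, Il24 changed by -3.02 and was not called (limma, adjusted p = 0.136). None of the 12 falls was called in that fit.

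Hs3st1, a sulfotransferase that builds the antithrombin-binding form of heparan sulfate, read -3.38, -3.57 and -4.40 with celecoxib, against 0.61 and -1.37 in untreated cultures. The 3 celecoxib arrays were close to each other and the untreated ones were not. The change was -3.27 ± 0.59 (adjusted p = 0.00649), and -2.28 without untreated replicate 1 (adjusted p = 0.0601). Reep4, an endoplasmic reticulum protein that clears the membrane from chromosomes in mitosis, read -3.17, -1.89 and -2.37 with celecoxib, against -0.24 and -0.51 in untreated cultures. Here the untreated arrays were close together. The change was -2.70 ± 0.59 (adjusted p = 0.0133).

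Celsr1, an atypical cadherin of planar cell polarity, read -3.67, -1.01 and -3.14 with celecoxib, against -0.67 and -0.86 in untreated cultures, and the nearest arrays of the groups almost met. Its change was -2.96 ± 0.58 (adjusted p = 0.00875), and its other probe gave -3.00. Apobr, a receptor for apolipoprotein B48, read -2.93, -0.78 and -1.54 with celecoxib, against 2.21 and -0.67 in untreated cultures. The untreated arrays were further apart than the nearest arrays of the groups. The fall was 3.03 ± 0.77 on the log2 scale (adjusted p = 0.0233), and without untreated replicate 1 the change was -1.59 (adjusted p = 0.237). Sctr, the secretin receptor, was 11.3-fold lower (adjusted p = 0.0159), with -3.63, -1.89 and -4.20 in celecoxib cultures, against 1.18 and -1.43 in untreated ones. The other 6 were Polr3a, the largest subunit of RNA polymerase III, Epn3, an endocytic adaptor of the epsin family, Epha10, an ephrin receptor, Or10n7, an olfactory receptor, Mlnr and Tmem134. Their changes ran from -3.08 for Or10n7 to -2.71 for Epn3, with adjusted p from 0.0122 to 0.0306. The 2 probes of Polr3a gave -2.80 and -1.29.

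**Figure D3:**
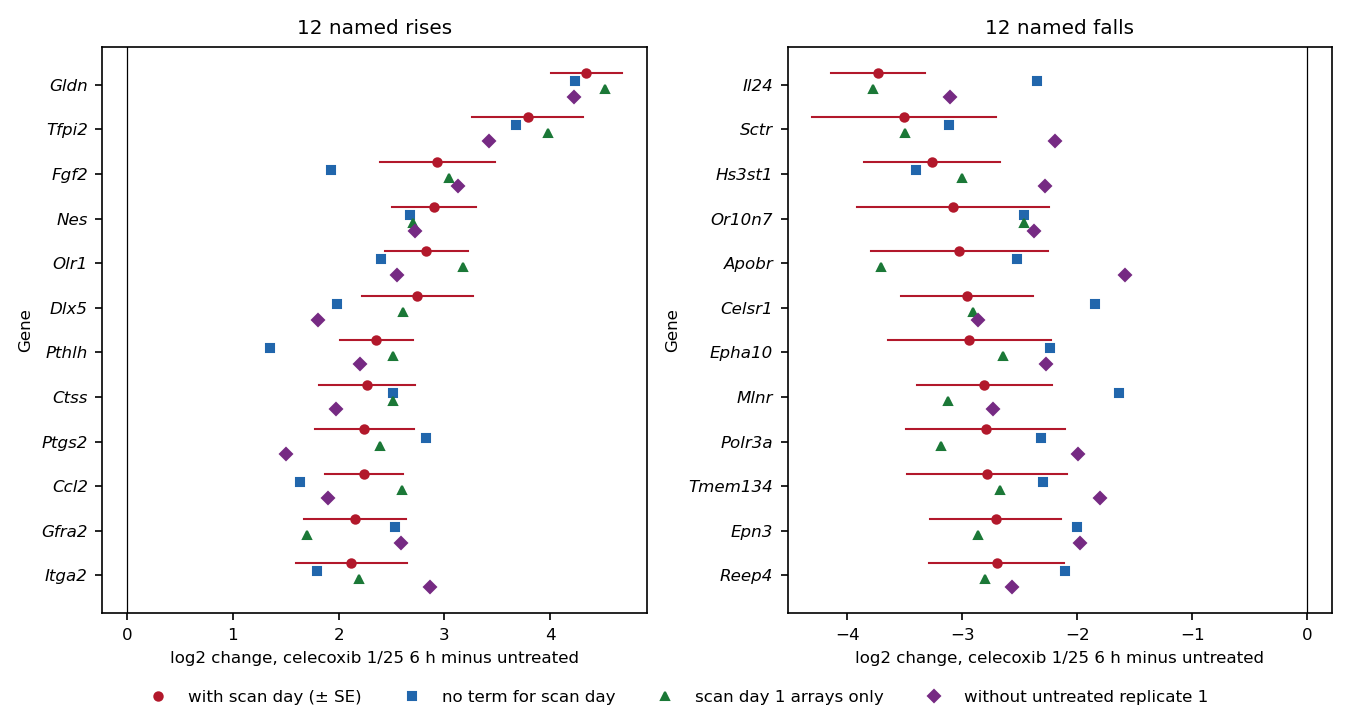
Log2 change of celecoxib 1/25 for 6 h minus untreated (x axis) of the 12 named rises and 12 named falls (y axis) under 4 settings of the fit. Red circles with bars are the fit with scan day ± SE, blue squares the fit without it, green triangles the arrays of scan day 1 only (1 celecoxib array, replicate 1) and purple diamonds the fit without untreated replicate 1; every point keeps its side of 0, and Apobr is nearest to it among the falls without untreated replicate 1 (-1.59).

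Across the table, 11 genes (0.0397%) were called with all arrays and also without each of the 5, and 5 of them had a symbol. These were Gldn and Il24 and 3 dim genes. Sh2b1, an adaptor of insulin and leptin receptor signalling, read -6.24, -5.21 and -5.24 with celecoxib, against -3.17 and -3.40 in untreated cultures, and was well above background on 1 of 3 celecoxib arrays. Its change was -3.04 ± 0.32 (adjusted p = 0.000814). Slc18a3, the vesicular acetylcholine transporter, read -6.54, -4.37 and -5.62 with celecoxib, against -2.62 and -2.90 in untreated cultures, and was likewise well above background on 1 celecoxib array. Its change was -3.84 ± 0.45 (adjusted p = 0.000974). The size of these changes depended on the background correction: with normexp they were -1.58 for Sh2b1 and -2.16 for Slc18a3 (limma, adjusted p = 0.00557 and 0.00483). Olr1451, an olfactory receptor gene, was well above background on both untreated arrays and on no celecoxib array, and was at least 8.63-fold lower with celecoxib (adjusted p = 0.00201).

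Of genes with a symbol, 20 had a probe that read well above background on all 3 celecoxib arrays and on no untreated array. For such genes the measured fold is a bound under the main scaling and background only. It sets the mean log2 signal of the bright group against that of the dim group, where each dim array counts with the higher of the probe's own signal and the lowest signal well above background, and it has no scan day term. C3h15orf48, whose human counterpart encodes a small mitochondrial protein induced in inflammation, was at least 5.14-fold higher with celecoxib (adjusted p = 0.00442). For 4 others the fit with scan day gave a smaller fold than their own bound, so that bound is not given. In that fit Prkcb, protein kinase C beta, was 4.18-fold higher (adjusted p = 0.00894) and Ptbp3, an RNA-binding protein of splicing, 6.85-fold higher (adjusted p = 0.0357). Ccl20, a chemokine, and Spint2, an inhibitor of serine proteases, had fitted folds of 2.08 and 2.12 and were not called (adjusted p = 0.178 and 0.112). Ccl20 read -3.82, -1.70 and -1.25 with celecoxib, against -5.00 and -5.00 in untreated cultures, and its fitted day 2 minus day 1 difference was 2.53.

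In the other direction 17 read well above background on both untreated arrays and on no celecoxib array. Nppc, which encodes C-type natriuretic peptide, was at least 4.11-fold lower with celecoxib (adjusted p = 0.00872), with -6.05, -6.54 and -7.61 in celecoxib cultures and -3.86 and -2.78 in untreated ones. With quantile normalization the change of Nppc was -1.89 on the log2 scale, smaller than the bound of 2.04, and was not called (limma, adjusted p = 0.0895). Ppbp, a platelet chemokine, was at least 7.52-fold lower (adjusted p = 0.00543), and Aadacl4fm2, a gene of the arylacetamide deacetylase family, at least 15.3-fold lower (adjusted p = 0.00321). Gna15, a G protein alpha subunit of blood cells, had a bound of at least 7.32-fold lower and was not called (adjusted p = 0.0531).

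Of 24 gene lists, none had more than 4 called members in either direction. Counts below stand beside 2.62% of all genes called higher and 8.95% called lower, and list medians beside -0.10 for all genes. With untreated replicate 1 left out, 2 of the called members of these lists in the higher direction and 1 in the lower stayed called: Ccl2, Rrm2b and Angptl4. The lists held 49 called genes, of which 20 were also called without the scan day term, and for 19 the arrays of the groups overlapped. Among the 19 were Bbc3, Tp53inp1, Bcl2, Abcc2, Mmp13, Myom2, Dnaja1, Ndufa1 and Atg7.

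Of 14 tested genes of prostanoid synthesis and receptors, Ptgs2 rose and none fell, and 8 more were too dim to test, among them the receptor genes Ptger2, Ptger3 and Ptger4. The median was -0.05. Of 20 inflammatory cytokines and NF-kappa-B genes, 3 rose and 1 fell, with a median of 0.45 and of 0.09 without untreated replicate 1. Besides Ccl2, the alarmin gene Il33 rose, with 2.35, 1.96 and 2.16 in celecoxib cultures, against -0.71 and 0.82 in untreated ones (change 1.94 ± 0.51, adjusted p = 0.028). The chemokine gene Ccl3 rose by 2.09 ± 0.59 (adjusted p = 0.0358), although 1 celecoxib array (-2.91) lay below 1 untreated array (-2.20). Ccl5, another chemokine, fell by 1.29 ± 0.31 on the log2 scale (adjusted p = 0.019), with overlapping arrays.

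Of 24 immediate early genes, 2 rose and 1 fell, with a median of 0.37. Egr2, a zinc-finger transcription factor, read 3.07, 2.06 and 2.30 with celecoxib, saturated on all 3 arrays, against 0.83 and 1.88 in untreated cultures (change 1.46 ± 0.37, adjusted p = 0.0237). The phosphatase gene Dusp6, a brake on ERK signalling, was 2.30-fold higher (adjusted p = 0.0256), and Dusp1, a phosphatase of p38 and JNK, fell by 2.07 ± 0.63 on the log2 scale (adjusted p = 0.0459). The arrays of both groups overlapped for Dusp6 and Dusp1. Of 21 interferon response genes, 0 rose and 3 fell, with a median of -0.55 and of 0.08 with quantile normalization. Gbp2, a guanylate-binding protein, read -3.13, -1.91 and -2.77 with celecoxib, against -1.33 and -1.73 in untreated cultures (change -1.42 ± 0.37, adjusted p = 0.025). The transcription factor gene Irf1 fell by 3.17 ± 0.84 (adjusted p = 0.0279), with celecoxib replicate 1 at -6.24 and overlapping arrays, and the peptide transporter gene Tap1 by 2.44 ± 0.67 (adjusted p = 0.0331).

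Of 28 genes of ATF4 and the integrated stress response, 0 rose and 3 fell: Gdf15, a stress cytokine that read -0.80, 0.14 and -0.51 with celecoxib against 0.86 and 0.50 in untreated cultures (change -1.39 ± 0.30, adjusted p = 0.0139), the cystine transporter Slc7a11 and the lipoprotein receptor Vldlr. The list median was -0.06. Of 28 NRF2 oxidative stress genes, 0 rose and 4 fell, with a median of -0.18. These were Slc7a11 again, the quinone reductase Nqo1 (-2.98 ± 0.82, adjusted p = 0.0324), the glutathione transferase Mgst1 and Osgin1. The arrays of the groups overlapped for the last pair. Nqo1 read -6.3, -3.49 and -3.84 with celecoxib, against -2.55 and -2.92 in untreated cultures. Celecoxib replicate 1 thus lay far below the other celecoxib arrays. Of 20 endoplasmic reticulum chaperone genes, Dnajb9 rose (1.01 ± 0.23, adjusted p = 0.0149) and none fell, with a median of 0.38. Of 19 cytosolic heat shock genes, the co-chaperone gene Dnaja1 rose (1.01 ± 0.27, adjusted p = 0.0305) and the heat shock factor gene Hsf1 fell (-1.92 ± 0.52, adjusted p = 0.031), with a median of 0.34. The change of Dnaja1 was 0.17 without the scan day term (adjusted p = 0.84).

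Of 19 p53 targets, 2 rose and 2 fell, with a median of -0.09. Rrm2b, a ribonucleotide reductase subunit for DNA repair, read -1.42, -2.55 and -2.51 with celecoxib, against -3.76 and -4.68 in untreated cultures (change 2.13 ± 0.49, adjusted p = 0.0169). The BH3-only cell death gene Bbc3 rose by 1.51 ± 0.46 (adjusted p = 0.0466), and Gdf15 and Tp53inp1 fell. The arrays of the groups overlapped for Bbc3 and Tp53inp1. Of 20 apoptosis regulators, Bbc3 and the caspase-8 inhibitor Cflar (1.16 ± 0.28, adjusted p = 0.0187) rose and Bcl2 fell (-1.65 ± 0.51, adjusted p = 0.0481), with a median of -0.21. Of 42 cell cycle genes, 0 rose and the mitotic kinase gene Aurkb fell (-2.54 ± 0.61, adjusted p = 0.0191), with a median of -0.16.

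Among metabolic lists, 1 of 26 PPAR and fatty acid oxidation genes rose and 3 fell, with a median of -0.14. The lipoprotein lipase inhibitor gene Angptl4 read -5.94, -3.36 and -3.86 with celecoxib, against -2.45 and -3.37 in untreated cultures. It fell by 2.70 ± 0.44 on the log2 scale (adjusted p = 0.00395), although 1 celecoxib array reached the level of the lower untreated one. Cd36, a fatty acid transporter, fell by 2.28 ± 0.57 (adjusted p = 0.0225), as did the nuclear receptor gene Ppard, and the thioesterase gene Acot2 rose by 1.32 ± 0.26 (adjusted p = 0.01). The median of 21 cholesterol synthesis genes was -0.03, and none of them fell. Of 31 respiratory chain and ATP synthase genes, Ndufa1 and Cox5a rose and none fell, with a median of 0.40. Of 27 glycolysis and hypoxia genes, none rose and Car9 fell, with a median of 0.15. Of 10 carbonic anhydrases, none rose and 2 fell, with a median of -1.09. Car1 read -2.65, -1.74 and -1.71 with celecoxib, against -0.37 and -1.19 in untreated cultures (change -1.59 ± 0.39, adjusted p = 0.0198), and Car9, the hypoxia-induced membrane form, fell by 1.51 ± 0.45 on the log2 scale (adjusted p = 0.0433).

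Of 26 lysosome and autophagy genes, Ctss rose and the autophagy enzyme gene Atg7 fell, with a median of -0.04. Of 14 circadian clock genes, the repressors Cry1 (1.19 ± 0.26, adjusted p = 0.013) and Bhlhe41 (1.27 ± 0.36, adjusted p = 0.0378) rose and none fell, with a median of -0.71. Of 16 xenobiotic metabolism and transport genes, none rose and 3 fell, namely Nqo1, the aldehyde dehydrogenase Aldh3a1 (-1.81 ± 0.50, adjusted p = 0.0319) and the exporter Abcc2, with a median of -0.74. Of 26 genes of extracellular matrix and TGF-beta, the elastase Mmp12 rose and the metalloprotease inhibitor Timp3 and the collagenase Mmp13 fell, with a median of 0.61 and of 0.20 with quantile normalization. Mmp12 read 1.52, 0.44 and 1.62 with celecoxib, against -1.05 and 0.06 in untreated cultures (change 1.80 ± 0.41, adjusted p = 0.0163). Timp3 read -4.13, -0.05 and -2.13 with celecoxib, against -0.28 and -0.03 in untreated cultures, so the arrays overlapped (change -2.86 ± 0.82, adjusted p = 0.0372).

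Of 23 sarcomere genes, none rose and Myom2, an M-band protein, fell (-1.54 ± 0.43, adjusted p = 0.034), with a median of 0.30. Myh6, the alpha myosin heavy chain, read 2.68, -0.62 and 2.40 with celecoxib, against 0.49 and 1.22 in untreated cultures, and its change of 1.93 ± 0.79 was not called (adjusted p = 0.108). Of 30 calcium handling and ion channel genes, none rose and 2 fell, namely the T-type calcium channel gene Cacna1h (-1.55 ± 0.37, adjusted p = 0.0194), whose arrays overlapped, and Kcnip2, a subunit of the transient outward potassium channel. Kcnip2 was well above background on 1 of 3 celecoxib arrays, and its change was -3.79 ± 1.08 (adjusted p = 0.036), or -2.27 with normexp. The median of that list was -0.30. Of 16 hypertrophy and natriuretic peptide genes, none rose and 2 fell, with a median of 0.04. Npr1, the receptor of atrial and B-type natriuretic peptides, read -3.46, -2.26 and -2.52 with celecoxib, against -1.32 and -1.18 in untreated cultures (change -1.67 ± 0.42, adjusted p = 0.0216), and the muscle ankyrin repeat gene Ankrd23 fell by 1.17 ± 0.35 on the log2 scale (adjusted p = 0.0444). Of 34 cytosolic ribosomal protein genes, none was called in either direction by limma, 11 had an unadjusted p below 0.05, and the median was 0.55, against 0.06 with quantile normalization. In 27 of these 34 genes at least 1 celecoxib array was saturated, and in 16 at least 1 untreated array.

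**Figure D4:**
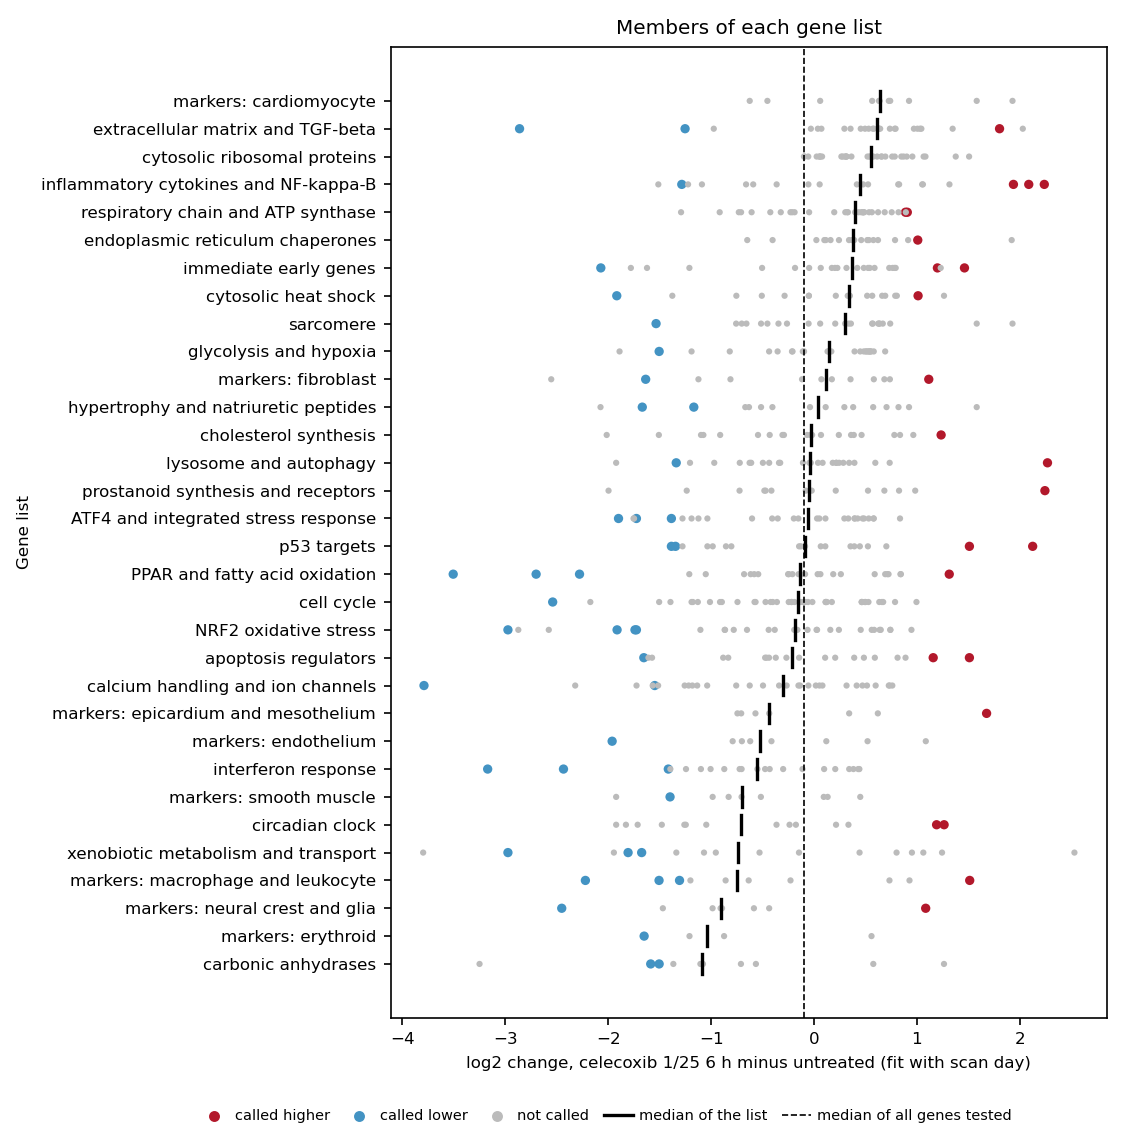
Log2 change of celecoxib 1/25 for 6 h minus untreated (x axis) of each tested member (points) of 24 gene lists and 8 marker lists (y axis), ordered by list median. Red and blue points are called higher and lower, grey points not called, black bars are list medians and the dashed line is the median of all genes (-0.10); list medians run from -1.09 for carbonic anhydrases to 0.64 for cardiomyocyte markers, and no list has more than 4 members called in 1 direction.

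The labelled cell type was checked with markers. Each of the 11 cardiomyocyte markers on the array read well above background in all 5 samples. None was called by limma, and 3 had an unadjusted p below 0.05. Their summed linear signal, in multiples of the array's 75th percentile, was 54.3, 19.98 and 43.4 with celecoxib, against 29.7 and 31.8 in untreated cultures, so the celecoxib arrays lay on both sides of the untreated ones. Fewer cells of a type and less RNA per cell cannot be told apart in such cultures. Fibroblast markers were also present, with 9 of 12 well above background on all 5 arrays and sums of 17.2 to 29.0 with celecoxib, against 20.7 to 21.5 in untreated cultures. Of them Mfap5 rose and Lum fell. The smooth muscle sum was 8.81 to 13.98 with celecoxib, against 13.0 to 16.9 in untreated cultures, and of 9 tested markers Mylk fell.

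Macrophage and leukocyte markers had sums of 9.21 to 14.3 with celecoxib, against 12.4 on both untreated arrays. Of 10 tested, Mrc1 rose (1.51 ± 0.41, adjusted p = 0.0302) and Cd14, C1qb and Cd163 fell, and Itgam was below the filter. Mrc1 read 2.04, 0.22 and 0.06 with celecoxib, against -0.14 and 0.30 in untreated cultures, so the groups overlapped, and its change was 0.70 without the scan day term (adjusted p = 0.342). Without that term Cd14 alone of these 4 was called. Cd14, the lipopolysaccharide co-receptor, read 0.18, 1.31 and -0.03 with celecoxib, against 1.82 and 1.66 in untreated cultures (change -1.51 ± 0.37, adjusted p = 0.0208), while its other probe gave 0.62. These values stand beside the rises of Ctss, Olr1, Ccl2 and Ccl3, which macrophages can also express, and their part in those rises was not tested. The endothelial sum was 6.77 to 9.69 with celecoxib, against 8.30 to 8.54 in untreated cultures, with Plvap lower and Tek, Tie1, Vwf and Emcn below the filter. The epicardium and mesothelium sum was 7.82 to 11.0 with celecoxib, against 5.98 to 9.26 in untreated cultures, with Aldh1a2 higher (1.68 ± 0.40, adjusted p = 0.0186). The neural crest and glia sum was 1.91 to 2.46 with celecoxib, against 1.89 to 1.98 in untreated cultures. Of 8 tested markers 1 was called higher and 1, Sox10, lower. Sox10 read -6.27, -2.96 and -2.81 with celecoxib, against -3.58 and -3.35 in untreated cultures, so only celecoxib replicate 1 lay below the untreated arrays. Its change was -0.55 without the scan day term (limma, adjusted p = 0.706). The erythroid sum was 1.15 to 2.04 with celecoxib, against 2.13 to 2.17 in untreated cultures, with Alas2 lower. The 8 marker lists held 12 called genes, of which 4 were also called without the scan day term, and for 5 the arrays overlapped.

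The next question was whether the lowest concentration differed from the highest at 6 h. Between celecoxib 1/25 and celecoxib 1 at 6 h, 0 of 27740 genes were called by limma, and 1542 (5.56%) had an unadjusted p below 0.05. Without the scan day term these counts were 0 and 1749, and with quantile normalization 0 and 1469. For the 12 named rises the difference of 1/25 minus 1 ran from -0.07 to 0.82 on the log2 scale, and the 95% confidence intervals of the 12 differences together spanned -0.92 to 1.61. For the 12 named falls the differences ran from -1.39 to -0.23, with intervals that together spanned -2.75 to 0.77. A p that misses the threshold does not show that the concentrations act alike. Gldn averaged 0.35 ± 0.29 at 1/25 and 0.35 ± 0.19 at 1 (SD, n = 3 each), with a difference of 0.05 and a 95% interval of -0.52 to 0.63. Ptgs2 averaged -0.30 ± 0.49 at 1/25 and -1.41 ± 0.74 at 1, with a difference of 0.82 and an interval of 0.02 to 1.61 before adjustment over genes. The named rises and falls were chosen for their change on the same 3 arrays at 1/25, so their differences and intervals are not independent of that choice.

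The same concentration was also measured at 24 h. Of 27741 genes, 637 (2.3%) were called between 24 h and 6 h at 1/25, 482 (1.74%) higher at 24 h and 155 (0.559%) lower. The comparison shares its 3 arrays at 6 h with that against untreated cultures, on which the named genes were chosen. Of the 12 named rises, 10 were called lower at 24 h, the exceptions being Gldn and Ctss, and of the 12 named falls Il24 and Celsr1 were called higher at 24 h. Tfpi2 averaged -0.40 ± 0.58 at 6 h and -3.81 ± 0.64 at 24 h (SD, n = 3 each), against -4.08 on the 2 untreated arrays. Its 24 h minus 6 h difference was -3.52 ± 0.49 (SE, limma, adjusted p = 0.00336). Ptgs2 averaged -0.30 ± 0.49 at 6 h and -4.13 ± 0.20 at 24 h, against -3.13 in untreated cultures, with a difference of -3.24 ± 0.43 (adjusted p = 0.00247). Nes averaged 1.96 ± 0.38 at 6 h and -0.43 ± 0.26 at 24 h, against -0.72 in untreated cultures (difference -2.62 ± 0.37, adjusted p = 0.00346). These 3 genes thus read near or below their untreated level at 24 h. Gldn averaged 0.35 at 6 h and -0.73 ± 0.26 at 24 h, against -3.89 in untreated cultures, and its difference of -1.19 ± 0.31 was not called (adjusted p = 0.0585). Its 3 arrays at 24 h all lay above the untreated ones. Ctss averaged -0.89 at 6 h and -1.31 ± 0.40 at 24 h, against -3.40 in untreated cultures (difference -0.17 ± 0.42, adjusted p = 0.841).

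**Figure D5:**
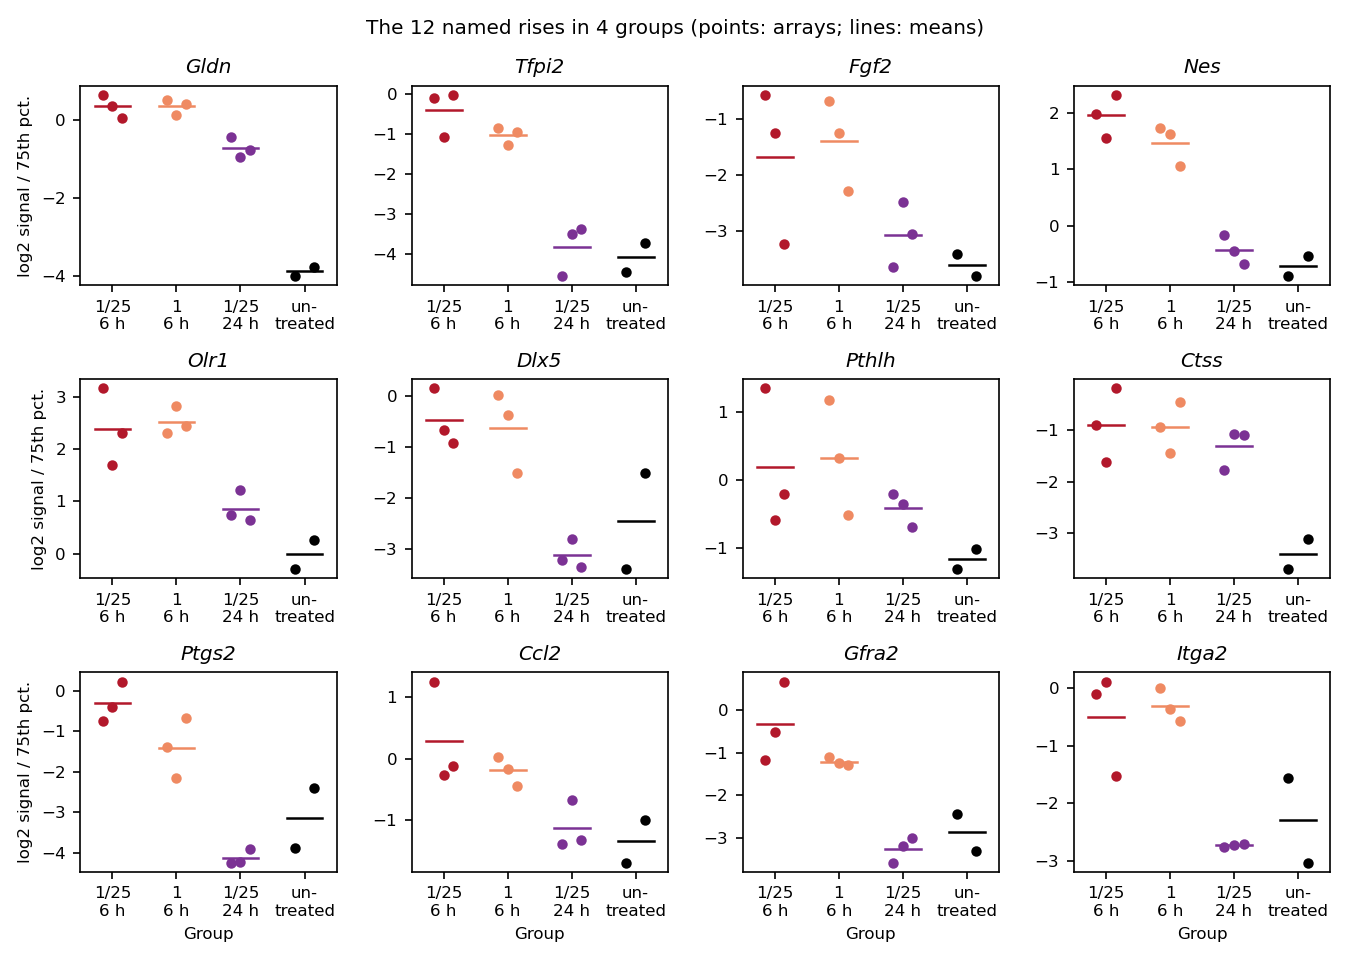
Log2 signal relative to the array's 75th percentile (y axis, separate scale per gene) of the 12 named rises in celecoxib 1/25 6 h, celecoxib 1 6 h, celecoxib 1/25 24 h and untreated cultures (x axis). Points are arrays (3 per celecoxib group, 2 untreated) and lines group means without a scan day term; Gldn and Ctss stay above the untreated arrays at 24 h (means -0.73 and -1.31), while Tfpi2, Nes and Ptgs2 lie near or below them.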

How the data were processed

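Per the file headers, Feature Extraction 9.5.3.1 from Agilent read the fluorescence intensity of each spot on the 20 single-colour arrays, and the authors deposited these scanner files. They also deposited values in the form of a linear ratio. Recomputing that ratio from the scanner files (processed signal over the array's median and over the mean of the untreated arrays) gave log2 values that correlated at 0.99902 with it, with a median absolute difference of 0.00292.

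Signals were the log2 processed signal less the log2 75th percentile of the same array, without outlier spots and averaged over spots of a probe. Probes stayed in if all arrays of any of the 7 groups had them well above background (31739 of 41012 probes), and the brightest kept probe stood for a gene, which left 27742 genes, 11869 of them with a symbol and 3274 with more than 1 kept probe. Gene names came from RefSeq, by the accession given for 10735 probes, by symbol or synonym for 9300 and by a further accession for 65, while 20912 probes go by their name in the scanner files. A gene with no value in a compared group was not tested.

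The 20 arrays were fitted in limma 3.58.1 (R 4.3.3) with group means and scan day, on 12 residual degrees of freedom (15.3 after moderation), with two-sided moderated tests and Benjamini-Hochberg adjustment over all genes. Correlation within slides used statmod 1.5.0, and input was handled by the data.table package (1.17.8) and jsonlite 2.0.0. The fit was tested on simulated data. Alternatives were no scan day term, the first scan day alone, slide as a random block, the replicate block, the 5 arrays alone, normexp background (offset 50), quantile or median scaling, no dim-probe filter or a stricter one, the mean of a gene's probes, the authors' ratio values, and each array left out.

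Genes were named by rule: the 12 largest rises and falls as described in the results, genes called without each array in turn, up to 4 members of each list by smallest adjusted p, up to 5 genes per direction by the largest bound, and 4 prostaglandin genes in any case. Groups came from the sample labels. The compared arrays, gene lists, rules and tests were chosen with earlier results of these data known. Results for a few genes of these lists are not reported here.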

Additional observations from a re-analysis of the deposited data

Results flagged for a closer look

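The change of 15 named genes differed between 24 h and 6 h at concentration 1/25, by the limma test of that difference with scan day in the fit (adjusted p below 0.05 over 27741 genes). The 24 h minus 6 h differences (log2) were negative for Tfpi2 (-3.52), Dlx5 (-3.41), Ptgs2 (-3.24), Nes (-2.62), Itga2 (-2.56), Gfra2 (-2.55), Fgf2 (-2.39), C3h15orf48 (-2.39), Ccl2 (-2.03), Olr1 (-1.95) and Pthlh (-1.60). They were positive for Nppc (3.08), Celsr1 (2.42), Il24 (2.17) and Slc18a3 (2.07). All 24 h arrays were scanned on the first day, as was 1 of the 3 arrays at 6 h. The genes were named for their change on the same 3 arrays at 6 h, so these differences are not independent of that choice.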

How the results depend on the processing

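The count of 3211 called genes kept within a factor of 1.5 with slide as a random block with scan day (3656), the replicate block (2954), normexp background (2415), the stricter filter on dim probes (2218) and the mean of a gene's probes (3153). With only the first scan day it was 2546, with 1 celecoxib array whose spread is taken from other groups. It was 1662 without scan day, 15 with slide as a random block without scan day, 1649 with quantile normalization, 5915 with the median of the array, 2135 without a filter on dim probes and 5825 with the authors' deposited table. With only the 5 arrays limma called 0 genes, and 2975 had an unadjusted p below 0.05. Leaving out 1 array gave 22 to 6895 calls, with 22 without celecoxib replicate 1 and 335 without untreated replicate 1. Without untreated replicate 1 and without scan day, an alternative chosen after seeing the data, 15 were called, and the change of Dnaja1 turned to -0.007 (1.01 with all arrays). The causes were not tested. Of 91 called genes among 155 named, no other changed sign, and of the 64 not called, 15 changed sign under some alternative, Ptgis among them (0.161 without celecoxib replicate 1). Calls lost among the 91 were 42 without scan day, 43 with quantile normalization, 72 without untreated replicate 1, 86 without celecoxib replicate 1, 86 with slide as a random block without scan day and 91 with only the 5 arrays. The contrast of concentrations gave 0 calls by limma, also without scan day and with quantile normalization (unadjusted counts of 1542, 1749 and 1469), and that of times 637 calls, or 681 without scan day.

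The replicate numbers were not taken as pairs. With 2 shared numbers, deviations from group means correlated at -0.189 for the arrays numbered 1 and -0.436 for those numbered 2. The deviations of the 2 untreated arrays mirror each other, and the celecoxib arrays differ in scan day. These correlations therefore cannot decide whether the numbers mark pairs. The replicate block with scan day gave 2954 calls. Signal over background limits the dim genes, whose changes depend on the background correction or are bounds, and saturation limits the bright ones.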
